A study of Mus musculus with 8 samples.

Results

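Blood group antigens are proteins and sugars on the red cell surface that differ between individuals, and many of their protein carriers are made during erythroid maturation. KLF1 is the erythroid zinc finger factor that switches on much of this programme through CACCC boxes, and people who carry 1 inactive KLF1 copy can have the In(Lu) type, in which the Lutheran antigens and CD44 are weak. The 9 genes described here were chosen by name: Icam4 (Landsteiner-Wiener), Cd44 (Indian), Bcam (Lutheran), Aqp1 (Colton), Kel (Kell), Rhd and Rhag (Rh complex), Ermap (Scianna) and Cd55 (Cromer). Of the 11364 genes in the 2 deposited tables of nascent RNA, 6 were members. Of the 5551 sites in the merged ChIP-seq peakset, 6 had a member as their closest transcription start site (TSS).

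K1 is an immortalised erythroid line from the fetal liver of Klf1-/- mice, so every cell described here lacks its own KLF1. K1-CDA-ER cells (K1-E339K-ER in the study) are K1 clones with a retroviral KLF1 that carries E339K and is fused to the hormone-binding part of the estrogen receptor (ER), so that 4-hydroxytamoxifen (4-OHT) moves it into the nucleus. Nascent RNA was, per the labels, tagged with 500 µM 4-thiouridine (4sU) for 30 min in 3 K1 libraries and in 3 K1-CDA-ER libraries, 1 from each of clones 1B, 2A and 2B. The methods of the study state a different dose and a longer labelling time. All of these had 200 nM 4-OHT except 1 K1 library, which had ethanol. ChIP against the ER part was done in clone 2A after 3 h of 200 nM 4-OHT, with 1 ChIP library from 3 pooled replicates and 1 input library. The wild type values are those the authors listed for KLF1-ER, and the libraries behind them were not analysed here on their own.

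The values used are 1 mean per gene and 1 mean per protein and site, and the tables hold no value for any library. The tables also hold fold changes and test statistics of the authors' own comparisons, which were set aside here, so no spread between replicates, interval or test is given. Library depth is unknown, and each difference below is a description. In a bulk mean, fewer cells of a type and less RNA per cell cannot be told apart. The erythroid identity of the cells was visible in the table: all 17 erythroid markers searched, 5 of which are members, were listed, with levels from 0.75 (Alas2) to 6.68 (Gata1) and a median of 3.09 (log2 CPM, that is read counts scaled to library size, per kb of gene). No lymphoid (0 of 5) or hepatocyte (0 of 4) marker was listed, against 3 of 7 megakaryocyte markers (-1.78 to 1.25), 2 of 6 macrophage markers (-3.27 and -0.52) and 3 of 3 stromal markers (-5.66 to -0.73). Their part in the values below was not tested.

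Of the members, 5 had at least 1 site: Cd55, Ermap, Icam4 and Kel with 1 each and Rhd with 2. Cd44, Bcam and Aqp1 were listed neither among the genes nor among the sites under any of their names, and Rhag was listed as a gene with no site. The sites nearest to the starts of these genes lay 193 kb away for Bcam, 364 kb for Aqp1, 500 kb for Cd44 and 2070 kb for Rhag, and each was assigned to another gene. Among all listed genes, 3022 of 11364 (26.6%) had at least 1 site, and among the listed members 5 of 6. Within 1 kb of the TSS the counts were 1795 genes (15.8%) and 4 members.

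A part of the sequence of each of the 6 sites is shown first, because the sites differ in the motifs they hold. The coordinates beside each run are those of the printed part, and matches outside it are not printed. KLF1 is known to bind the G-rich strand of CACCC boxes, and the 2 proteins were compared in the study by the fifth base of this motif, a pyrimidine or a purine. The pyrimidine motif (wild type) was searched as NGGGCGTGG, NGGGCGGGG, NGGGTGTGG and NGGGTGGGG, and the purine motif (mutant) as NGGGAGTGG, NGGGAGGGG, NGGGGGTGG and NGGGGGGGG. GATA1, the erythroid partner of KLF1, is known to bind the GATA motif, searched with either first letter and either last letter, that is AGATAA together with its variant AGATAG as well as the form TGATAA together with its variant TGATAG. Each was searched on both strands of the mm9 (NCBIM37) sequence. Capitals mark the matches, and each run is written 5′ to 3′ in the direction of transcription, so a match on the other strand appears as its reverse complement (CCACTCCCG for the purine motif, TTATCA for GATA).

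The stretch of the Cd55 site upstream of the gene (chr1:132359322-132359502, minus strand) held, in this order, 1 purine and 2 pyrimidine matches, the last of them directly before the annotated start.
Cd55: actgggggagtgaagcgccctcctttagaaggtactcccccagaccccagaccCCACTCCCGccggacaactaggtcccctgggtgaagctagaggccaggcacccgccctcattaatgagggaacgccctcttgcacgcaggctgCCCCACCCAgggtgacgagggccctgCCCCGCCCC

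In the Icam4 site (chr9:20833692-20833819, plus strand) a purine match was followed by a pyrimidine match that spans the annotated start. A GATA match lay 18.5 bp past the start, in the 5′ untranslated exon.
Icam4: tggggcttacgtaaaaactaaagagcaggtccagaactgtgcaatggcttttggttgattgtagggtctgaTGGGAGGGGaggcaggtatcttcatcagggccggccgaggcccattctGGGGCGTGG

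The second Rhd site (chr4:134425396-134425656, plus strand), in the first intron, held 1 pyrimidine match and 2 GATA matches on the strand opposite to the gene.
Rhd, 5.1 kb: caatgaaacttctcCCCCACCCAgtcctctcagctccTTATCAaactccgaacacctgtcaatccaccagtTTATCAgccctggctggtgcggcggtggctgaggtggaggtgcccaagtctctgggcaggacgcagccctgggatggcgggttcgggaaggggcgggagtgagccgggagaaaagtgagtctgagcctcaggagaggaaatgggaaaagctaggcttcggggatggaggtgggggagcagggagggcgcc

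The other 3 sites held GATA matches and no exact match to either KLF1 motif. They are the Kel promoter (chr6:41654338-41654440, minus strand), the Ermap promoter (chr4:118862617-118862796, minus strand) and the first Rhd site (chr4:134421349-134421609, plus strand).
Kel: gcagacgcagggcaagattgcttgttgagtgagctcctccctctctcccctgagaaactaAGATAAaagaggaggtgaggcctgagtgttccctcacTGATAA
Ermap: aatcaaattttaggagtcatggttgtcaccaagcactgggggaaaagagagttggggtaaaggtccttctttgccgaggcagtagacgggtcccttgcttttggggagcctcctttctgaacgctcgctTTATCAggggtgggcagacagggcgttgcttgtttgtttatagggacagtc
Rhd, 1.0 kb: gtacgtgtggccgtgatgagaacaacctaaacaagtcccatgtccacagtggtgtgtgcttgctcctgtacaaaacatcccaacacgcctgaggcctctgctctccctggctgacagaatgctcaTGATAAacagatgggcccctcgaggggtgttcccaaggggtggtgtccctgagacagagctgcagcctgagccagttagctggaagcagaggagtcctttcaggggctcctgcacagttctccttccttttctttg

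Occupancy is given as the concentration, the authors' log2 mean of normalised reads in a site for each protein. Of the 6 sites, 3 had a concentration at least 2-fold higher for wild type KLF1-ER (background 28.7% of all sites), 1 had one at least 2-fold higher for KLF1-E339K-ER (background 61.5%), and 2 differed by less. The sites at Cd55 and Icam4 and the second Rhd site formed the first set, and Kel was the one site of the opposite direction. With so few sites, these shares describe the listed sites and say nothing of blood group genes in general.

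**Figure D1:**
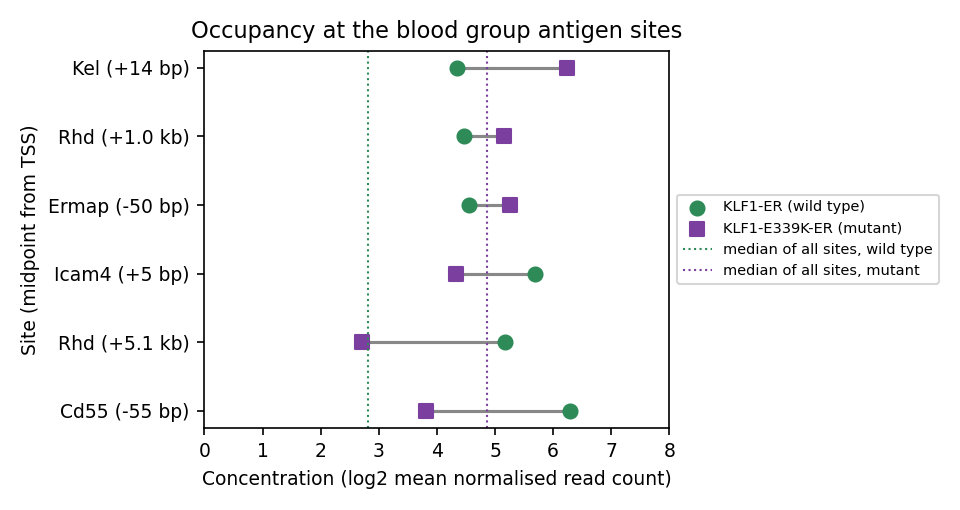
Concentration (log2 mean normalised read count) of KLF1-ER (circles) and KLF1-E339K-ER (squares) at the 6 sites, each named by its gene and the place of its midpoint from the TSS. Dotted lines are the medians over all sites, 2.82 for wild type and 4.86 for mutant. The wild type values of the 6 sites all lie to the right of their median. That median takes in 1424 sites at the lowest wild type value, -0.09.

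Cd55 encodes the GPI-anchored decay-accelerating factor, which protects red cells from complement. Its site (chr1:132359176-132359568) was centred 55.0 bp before the TSS. The concentration was 6.29 for wild type and 3.82 for mutant, or 78.2 and 14.1 mean normalised reads, a 5.54-fold difference in favour of wild type. Among all sites the wild type value stood at the 94.4th percentile and the mutant value at the 25.3rd.

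Icam4 is a ligand of integrins on the erythroblast and red cell surface, and it takes part in the contacts of erythroblasts with macrophages. Its site (chr9:20833665-20833979) was centred 5.00 bp past the TSS, over the first exon. The concentration was 5.69 for wild type and 4.32 for mutant, which is 2.58-fold higher for wild type. The wild type value was at the 87.4th percentile and the mutant value at the 32.2nd.

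Rhd encodes the core protein of the Rh complex, and the mouse has this single gene in place of the human pair. Both of its sites lay in the first intron (chr4:134420661-134432229), with their midpoints 4047.5 bp apart and 1028.0 and 5075.5 bp past the TSS. The farther site (chr4:134425348-134425705) had 5.18 for wild type and 2.71 for mutant, again 5.54-fold higher for wild type. The nearer site (chr4:134421322-134421636) had 4.46 for wild type and 5.16 for mutant, which is 1.62-fold higher for the mutant. The 2 proteins therefore ranked the 2 sites of this intron in opposite order.

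Kel encodes a zinc endopeptidase that is carried on the red cell surface bound to the XK protein. Its site (chr6:41654122-41654499) was centred 13.5 bp past the TSS, in a 5′ untranslated exon. It had the highest mutant concentration of the 6 sites, 6.24 against 4.34 for wild type, a 3.73-fold difference. The mutant value was at the 87.9th percentile, yet the difference of 1.90 on the log2 scale was only at the 44.2nd, since the median difference over all sites, mutant minus wild type, was 2.60.

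Ermap encodes an erythroblast membrane protein of the immunoglobulin superfamily with a B30.2 domain. Its site (chr4:118862510-118862823) was centred 50.5 bp before the TSS and had 4.55 for wild type and 5.25 for mutant. This is a 1.62-fold difference, the same on the log2 scale (0.70) as at the nearer Rhd site.

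**Figure D2:**
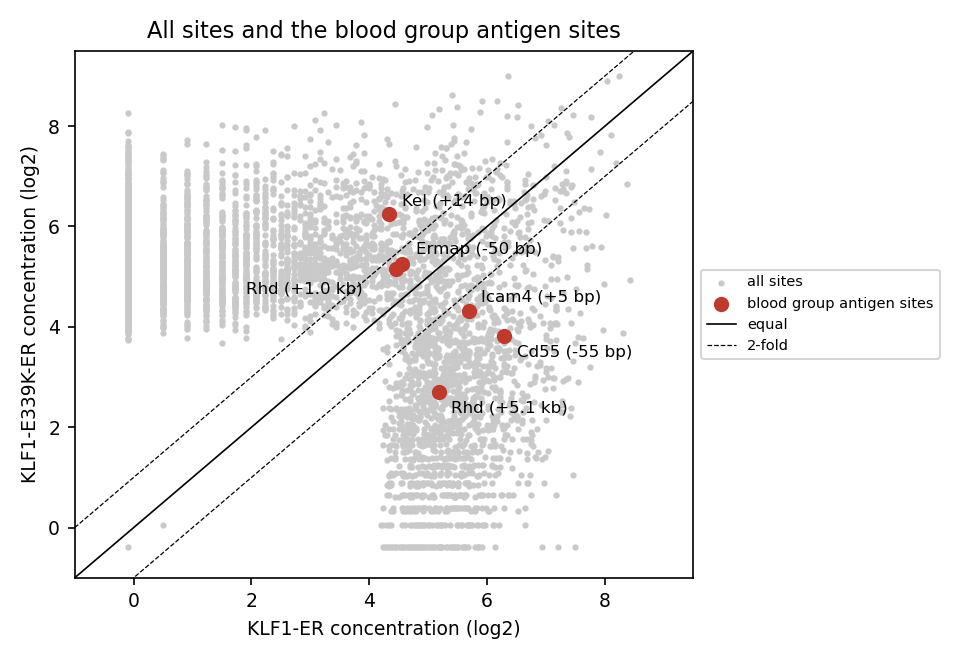
Concentration of KLF1-ER (x axis, log2) against KLF1-E339K-ER (y axis, log2) at all 5551 sites (grey) and at the 6 sites of the blood group antigen genes (red); the solid line marks equal values and the dashed lines 2-fold differences. The 6 sites lie away from both edges, with the lower value of each pair at 2.71 or above, while the grey columns at the left are sites with hardly any wild type signal.

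At all 6 sites both concentrations were above the lowest listed value, -0.09 for wild type and -0.38 for mutant. Of all sites, 1570 (28.3%) had the lowest value for at least 1 protein. No floor is known, so this does not show signal above background. The lower of the 2 concentrations was at least 2 at all 6 sites (lowest 2.71), against 2426 of all sites (43.7%). The share was 55.9% at the sites of the other blood group genes described below. The median wild type concentration was 4.86 at the 6 sites and 2.82 over all sites, whereas the median mutant concentration was 4.74 and 4.86. Of all 5551 sites, 1424 had the lowest wild type value and 147 the lowest mutant value, and 61.5% were at least 2-fold higher for the mutant. Wild type medians and percentiles over all sites therefore take in many sites with hardly any wild type signal. A high wild type percentile here does not by itself mean strong binding. The differences at the 6 sites, mutant minus wild type, stood between the 19.6th and the 44.2nd percentile of all sites, and their median was -0.34. Over the 2190 sites within 1 kb of a TSS the median difference was 2.06, and the same differences stood between the 19.4th and the 49.0th percentile.

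**Figure D3:**
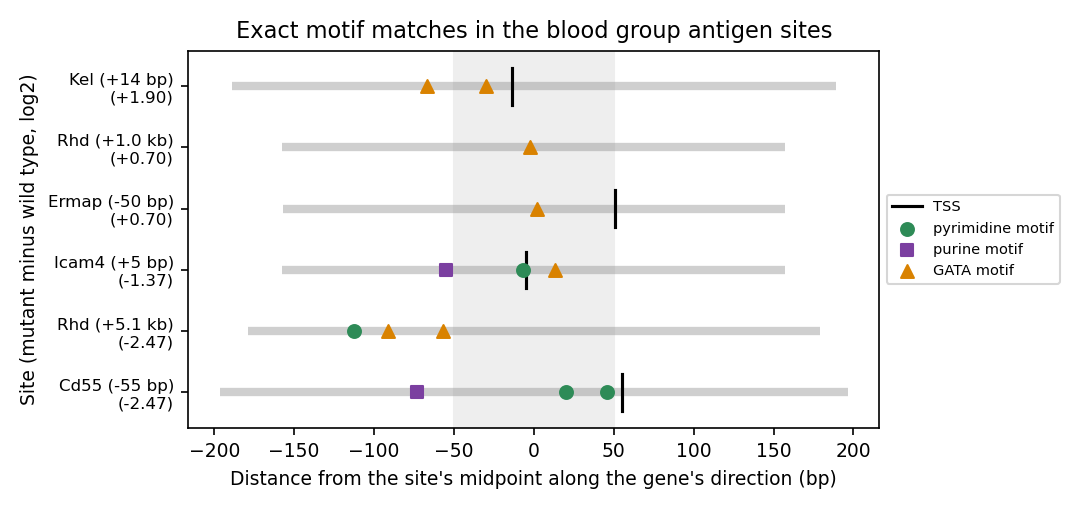
Exact motif matches in the 6 sites, by distance from the midpoint in bp along the direction of transcription; grey bars are the sites, the shaded band is the 50 bp on each side of the midpoint, and black ticks are TSS. The value under each name is the log2 difference, mutant minus wild type. The 3 sites with a pyrimidine match (circles) are those with negative values, and the upper 3 sites hold GATA matches (triangles) alone.

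The pyrimidine motif was present in 3 of the 6 sites, against 58.6% of all sites, and these 3 were the ones at least 2-fold higher for wild type. This split did not hold at the other blood group genes described below, where sites with and without the motif went in both directions. With it and with no purine match, a Piezo1 site had a difference, mutant minus wild type, of 3.06 and a Cd151 site -3.02. With 2 matches to each motif, a Gypc site had 4.72. Without either motif, another Gypc site had -5.22 and another Cd151 site 5.11. The fifth base was C in the Icam4 match GGGGCGTGG and in the Cd55 match GGGGCGGGG, and T in the other Cd55 match and in the Rhd match, both TGGGTGGGG. The centres of the matches lay 2.00 bp before the TSS in Icam4 and 9 and 35 bp before it in Cd55. In the Rhd site the match was 112.5 bp from the midpoint. Within 50 bp of the midpoint, 2 of the 6 sites (Cd55 and Icam4) held the pyrimidine motif, against 35.3% of all sites.

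The purine motif was present in 2 of the 6 sites, Cd55 (CGGGAGTGG) and Icam4 (TGGGAGGGG), against 58.4% of all sites. Both matches had A at the fifth base, both lay over 50 bp from the midpoint (73.0 and 55.0 bp), and both sites also held the pyrimidine motif. Within 50 bp of the midpoint no site of the 6 held it, against 35.5% of all sites. Over all sites with both motifs the median difference, mutant minus wild type, was 2.65, and 441 of 1948 (22.6%) were at least 2-fold higher for wild type, so the Cd55 and Icam4 sites stood on the less common side of that class. Sites with the pyrimidine motif alone had a median difference of -2.28, and the Rhd site of this class had -2.47.

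The sites at Kel and Ermap and the nearer Rhd site held neither motif, as did 1007 of all sites (18.1%). In that class the median difference was 3.15, above all 3 values here (0.70 to 1.90). The best place within 50 bp of the midpoint differed from each motif by 1 letter in these 3 sites, but 85.1% of all sites came within 1 letter of the pyrimidine motif and 89.7% within 1 letter of the purine motif.

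GATA matches were present in 5 of the 6 sites, all but Cd55, against 44.4% of all sites. Within 50 bp of the midpoint the counts were 4 of 6 and 20.6%. At the 34 sites of the other blood group genes described below, the shares were 58.8% in the whole site and 41.2% within 50 bp. Among the 4 sites within 1 kb of a TSS, 3 held a GATA match, against 24.9% of all sites so placed. In the Ermap and the nearer Rhd site the TGATAA match was centred 2.00 and 2.50 bp from the midpoint. In Kel the matches lay 16.5 and 53.5 bp before the deposited TSS, and the nearer of them overlaps the annotated start. The motif is short, so a match says only that these letters are present. In windows of 150 bp on each side of the annotated gene start, a GATA match was found for 5 of the 6 listed members (Icam4, Kel, Rhd, Rhag and Ermap), against 15.7% of 9949 listed genes. The pyrimidine motif was found in 3 such windows (Icam4, Rhd and Cd55), against 44.1%, and the purine motif in 2 (Icam4 and Cd55), against 24.3%. Rhag thus had a GATA match at its start without a site, and Rhd had a pyrimidine match at its start while its sites lay farther into the gene.

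The G+C content of the 6 sites ran from 48.9% (Kel) and 49.0% (Ermap) through 54.0% (Rhd, nearer), 56.2% (Icam4) and 59.8% (Rhd, farther) to 64.6% (Cd55). The median was 59.1% over all sites and 64.7% over sites within 1 kb of a TSS. The 3 sites with the lowest G+C content were those with a higher mutant concentration.

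The Icam4 site has neighbours toward Icam5, the next gene on the chromosome, which encodes a neuronal adhesion molecule. A site 322 bp past the end of Icam4, assigned to Icam5, had 2.08 for wild type and 4.37 for mutant. It held 7 purine matches, with overlapping matches counted separately, and no pyrimidine match. A second one, at the Icam5 start 2688.5 bp from the Icam4 site, had 4.27 and 6.34 in the same order, with 2 purine matches. Both were more than 4-fold higher for the mutant (2.29 and 2.07 on the log2 scale), whereas the Icam4 site was higher for wild type. Cd55 has a close paralogue listed as Daf2, and the 1 site assigned to it, 122753.5 bp from its TSS, had 2.50 for wild type and 6.24 for mutant.

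**Figure D4:**
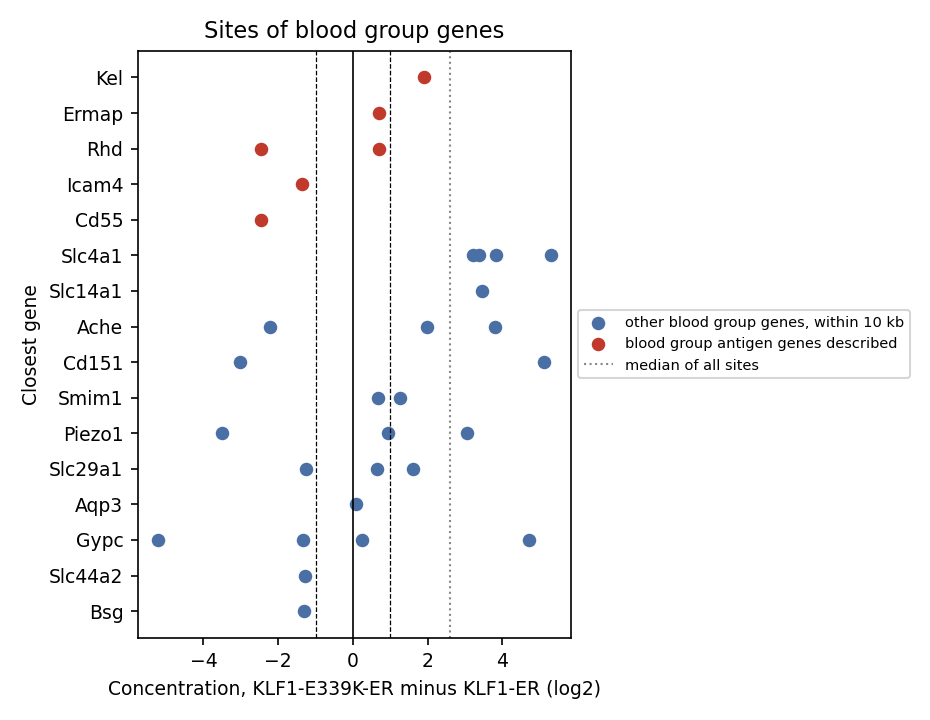
Concentration of KLF1-E339K-ER minus KLF1-ER (log2, x axis) at each site, by closest gene (y axis); red points are the 6 sites of the blood group antigen genes, blue points the 25 sites within 10 kb of the TSS of 11 other blood group genes. Dashed lines mark 2-fold differences and the dotted line the median of all sites (2.60); the red points stay between -2.47 and 1.90, and the blue points run from -5.22 to 5.30.

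A wider list of 39 other genes that carry or make blood group antigens was set beside these sites. Of them, 24 were listed in the gene tables, 15 had a site at any distance and 11 had one within 10 kb of the TSS. Of the 25 sites within 10 kb, 12 (48.0%) were at least 2-fold higher for the mutant, 8 (32.0%) for wild type and 5 (20.0%) for neither. The anion exchanger Slc4a1 (band 3, Diego) had 4 such sites, all higher for the mutant by 3.22 to 5.30 on the log2 scale. The site 142.0 bp past its TSS had 3.30 for wild type and 6.68 for mutant. Another site just outside the window, 10076.5 bp before the TSS, had 5.20 and 4.08 in that order.

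Several of these genes had sites of both kinds. The tetraspanin Cd151 (Raph) had one with 7.37 for wild type and 4.35 for mutant and another with -0.09, the lowest listed value, and 5.02. Acetylcholinesterase (Ache, Yt) had 3 sites, with differences, mutant minus wild type, of 1.97, 3.79 and -2.23. The mechanosensitive channel Piezo1 (Er) had 3.06, -3.49 and 0.95. The membrane glycoprotein Gypc (Gerbich) had 4 sites that ran from -5.22 to 4.72, and the nucleoside transporter Slc29a1 (Augustine) had -1.26, 0.65 and 1.61.

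The rest had 1 or 2 sites. The urea transporter Slc14a1 (Kidd) had one 19.5 bp from its TSS with 1.91 for wild type and 5.35 for mutant. The choline transporter-like Slc44a2 had 5.83 and 4.55 in the same order, and Bsg (basigin, Ok) had 5.08 and 3.78. The glycerol channel Aqp3 (Gill) had nearly equal values, 5.32 and 5.39. Smim1 (Vel) had 2 sites, both higher for the mutant by 0.67 and 1.25.

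The nascent RNA level was taken as the authors' mean log2 CPM over the libraries of their fit, less log2 of the gene length in kb. The length in the tables was within 10% of the whole gene span, introns included, for 84.6% of 10043 annotated genes, so the level is per kb of gene. Per kb the order was Ermap (4.44), Icam4 (4.39), Kel (2.66), Rhd (1.55), Rhag (0.82) and Cd55 (-3.01), a range of 7.45 on the log2 scale. Ermap and Icam4 were 0.05 apart, and the other neighbours in the order by 0.73 to 3.83. None of these gaps was set against a spread, since the tables hold no value per library and the authors' test statistics were not used.

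**Figure D5:**
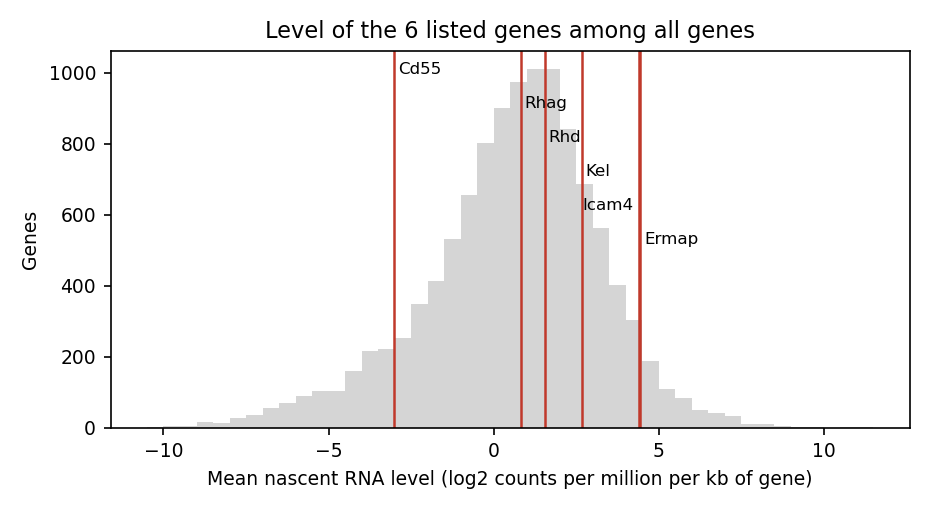
Distribution of the mean nascent RNA level (x axis, log2 CPM per kb of gene) over all 11364 listed genes (y axis, number of genes), with red lines for the 6 listed blood group antigen genes. Ermap and Icam4 lie in the upper tail, Rhag at the median and Cd55 in the lower tail.

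Ermap stood at the 94.9th percentile of all listed genes per kb and Icam4 at the 94.6th. Kel was at the 80.2nd and Rhd at the 62.6th, while Rhag, the glycoprotein that brings Rh proteins to the membrane and conducts ammonia, was at the median of all genes. Cd55 was at the 9.89th, although its site had the highest wild type concentration of the 6. Ermap had the highest mean of the 6 (8.30 log2 CPM, gene of 14.6 kb) and Cd55 the lowest (1.56, gene of 23.7 kb). Icam4 is a short gene of 1.16 kb, so its mean of 4.60 log2 CPM gave a high level per kb. With no division by length, Icam4 stood at the 39.2nd percentile of all listed genes. With division by the summed exon length, Icam4 was the fourth of the 6 and Ermap (5.90) and Rhd (5.86) led, while Cd55 remained the last. Icam4 lies inside a gene annotated on the opposite strand under the name Mir1900, and the Cd55 start is overlapped by Gm16083 on the opposite strand. Whether the counting used strand was not given in the sources used here, and without strand the reads of such pairs cannot be told apart. Among the 24 listed genes of the wider list the median level was 1.26, against 2.10 for the 6 members and 0.82 for all genes. The mean is the same in the table for KLF1-E339K-ER and in the one for KLF1-ER, so it appears to come from 1 fit that also covers KLF1-ER libraries, which are not among the samples described here. It therefore pools cells without KLF1 and cells with either protein, and does not say which of them made the RNA.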

How the data were processed

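4sU-RNA-seq was measured in 6 libraries and ChIP-seq in 2. Reads came from an Ion Proton sequencer. The authors used Tophat2 (2.0.10 in the submitters' processing notes) and TMAP for mapping, with mm9 as the genome, removed RNA reads of low mapping quality and duplicate or multi-mapped ChIP reads, fitted limma-voom, called peaks with MACS2 and GEM and compared proteins with DiffBind. The counting tool and gene annotation were not given in the sources used here.

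The deposited log2 values used are the mean expression and the concentration per protein, which are the authors' means. The deposited tables otherwise hold the authors' own comparisons (log2 fold changes, t, p-values and FDR), which were not used. Depth per library is unknown, so no interval or floor is given.

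Rows of both gene tables were joined on Entrez identifier, length and mean expression (779 genes have different symbols). Sites were assigned by the closest TSS in the table. A concentration difference of 2-fold or more, mutant minus wild type, was counted. Motifs were searched within 50 bp of the midpoint and in whole sites, and overlapping matches were counted separately. Planted motifs had been recovered in simulated sequence of A and T only, which checks the search itself and not the matches in G-rich sites. GENCODE M1 (NCBIM37) gave gene positions and the annotated starts. Distances from the TSS use the deposited TSS, which differs by some bases from the annotated start in Kel and Cd55. The sign of the deposited distance was read as TSS minus midpoint in genome coordinates and was turned to the gene's direction. Read this way, the distance matched an annotated gene start within 100 bp at 70.4% of 5148 sites checked. Python 3.11.15, pandas 2.3.3 and pysam 0.24.0 were used.

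The members and lists were chosen with earlier results of these data known. The text names all 9 members with every site, other blood group genes with a site within 10 kb, and Gata1, Alas2, Icam5 and Daf2, which were chosen after their values were seen. One gene was removed from the lists and enters no count; the other listed genes that are not named enter the counts and ranges only. Alternatives were other distances, a 4-fold minimum, a minimum concentration of 5, other motif windows and other lengths.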

Additional observations from a re-analysis of the deposited data

How the results depend on the processing

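No paired analysis was possible because the tables hold no value per library, and for the same reason no replicate could be left out. The 6 sites of the members were all within 10 kb of their TSS, and 6 were found again by overlap with the gene or the 10 kb before it. Within 1 kb, 4 sites and 4 genes remained of 6 sites and 5 genes. With a minimum of 4-fold, 0 sites were higher for KLF1-E339K-ER (1 with 2-fold) and 2 for KLF1-ER (3 with 2-fold), since the differences at Kel and Icam4 are under 2 on the log2 scale. A minimum concentration of 5 for the higher protein changed no count. The purine motif was found in 0 sites within 50 bp of the midpoint, in 2 within 100 bp and in 2 over the whole site. The median level of the 6 listed members was 2.10 per kb of gene, 5.04 per kb of exons and 6.12 with no division by length, which changes the unit as well. The value of Cd55 went from -3.01 per kb of gene to 1.56 with no division by length. Depth limits what can be said of any site, since the concentrations carry no error.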
